A study of Mus musculus with 8 samples.

Results

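The genes described here are the G1 cyclins with their kinases, inhibitors and main substrate, together with Myc and its antagonist Mxd4: Ccnd1, Ccnd2, Ccnd3, Cdk4, Cdk6, Cdkn1b, Cdkn2c, Rb1, Myc and Mxd4. They were chosen by function, with earlier results of these data known, among them the difference of Ccnd2 between targets, whose p had been among the smallest. Values of that comparison are therefore given as a description. Every probe set annotated with exactly 1 of these symbols was taken, which gave 24 probe sets for 10 genes, of 22626 non-control probe sets and 12393 genes on the array. Ccnd2 had 7, Mxd4 had 4, Ccnd1 and Cdk4 had 3 each, Cdkn1b had 2, and the other genes had 1 each.

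The RNA came from CD8 T cells of OT-1 mice, whose transgenic receptor recognises a peptide of ovalbumin. The cells were already activated, were held for 4 h at a ratio of 30 to 1 with peptide-loaded ID8 cells, a mouse ovarian cancer line, and were then collected with magnets. Cells of each of 4 mice, A to D, met ID8 cells made to overexpress PD-L1 in 1 co-culture and ID8 cells depleted of PD-L1 in the other, so that there were 4 arrays for each target and 8 in all. T cells without targets and unmodified ID8 cells were not analysed here, and age, sex and activation method are not given in the sources used here. All 8 arrays share the receptor, the peptide and the prior activation.

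A resting T cell enters division when D-type cyclins accumulate and bind Cdk4 or Cdk6. These kinases phosphorylate the retinoblastoma protein, the product of Rb1, which then releases E2F factors that switch on S phase genes. Cdkn1b encodes p27, which restrains cyclin-Cdk complexes, and Cdkn2c encodes p18, which binds Cdk4 and Cdk6 directly. Myc is induced by antigen receptor signalling and drives growth and metabolism of activated T cells, in a dimer with Max on the motif CACGTG. Mxd4 competes with Myc for Max and represses from the same motif.

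Promoter sequence from RefSeq (GRCm38.p6) was found for 6 of the 10 genes, in 8 windows of the 250 bases before an annotated start, and CACGTG lay in the windows of 3 genes. The motif reads the same on both strands, and it was present in 6.02% of 32851 windows of this length. The Cdk4 window held 4 copies, a number reached or passed in 0.0213% of windows, and the Cdk6 and Mxd4 windows held 1 each. They are shown because they are the members where the motif of the Myc and Mxd proteins is found, with the motif in capitals. The windows are chr10:127063285-127063534 on the plus strand for Cdk4, chr5:3343643-3343892 on the plus strand for Cdk6 and chr5:34187711-34187960 on the minus strand for Mxd4.
Cdk4: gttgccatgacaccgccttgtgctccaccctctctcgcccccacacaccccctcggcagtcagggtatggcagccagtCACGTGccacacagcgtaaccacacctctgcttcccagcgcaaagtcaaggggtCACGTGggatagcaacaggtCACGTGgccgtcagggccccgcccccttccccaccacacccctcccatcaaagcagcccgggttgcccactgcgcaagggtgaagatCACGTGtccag
Cdk6: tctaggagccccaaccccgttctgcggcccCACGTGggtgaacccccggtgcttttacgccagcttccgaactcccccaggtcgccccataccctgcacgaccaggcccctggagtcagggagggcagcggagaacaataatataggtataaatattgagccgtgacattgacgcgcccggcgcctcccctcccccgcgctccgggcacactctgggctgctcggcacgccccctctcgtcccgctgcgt
Mxd4: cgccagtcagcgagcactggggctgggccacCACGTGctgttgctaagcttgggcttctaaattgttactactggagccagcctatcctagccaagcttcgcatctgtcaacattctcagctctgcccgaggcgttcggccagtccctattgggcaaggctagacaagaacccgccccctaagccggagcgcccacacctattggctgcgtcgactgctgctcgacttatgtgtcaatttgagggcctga
The copies in Cdk4 begin 172, 118, 98 and 11 bases before the start, that in Cdk6 220 bases and that in Mxd4 219 bases before it. A match describes the letters only, and binding was not measured.

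Values are deposited log2 expression values, so a difference of 1 is a doubling, and a level is compared only within a probe set. The arrays correlated at 0.994 to 0.998. Of the members' probe sets 22 lay at or above 6.87, the 40th percentile of probe set means, and 2 lay below it, 1 each of Cdkn1b and Mxd4. In bulk RNA, fewer cells of a type and less RNA per cell cannot be told apart. Of 8 CD8 T cell markers, all above 6.87, the mean was 12.52 to 12.74 on every array. Of 21 markers of ID8 cells 12 lay above it, and their mean ran from 7.78 to 9.12 with PD-L1-overexpressing and from 7.71 to 9.03 with PD-L1-depleted targets. It was higher with overexpressing targets by 0.946, 0.808 and 0.846 in mice A, C and D, and differed by -1.25 in mouse B, so mouse B went against the other 3. Above 6.87 lay 1 of 6 B cell markers, 2 of 6 of macrophages and dendritic cells, 2 of 3 of CD4 and regulatory T cells and 0 of 2 of erythroid cells.

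The first question was whether the cells of the 4 mice differed in this machinery, whichever target they met. The D-type cyclins, Cdkn1b and Myc differed between mice, in more than 1 pattern. The kinases, Cdkn2c, Rb1 and Mxd4 did not pass. In limma's moderated F test between mice, adjusted over all probe sets, 12 of the 24 member probe sets (50%) passed, against 12.9% of all probe sets. They belonged to Ccnd1, Ccnd2, Ccnd3, Cdkn1b and Myc. Ccnd2 alone gave 7 of the 12, and these read the same transcripts, so the count is not one of independent genes. The contrast was smaller among expressed probe sets. At or above the 40th percentile 12 of 22 members passed, against 3192 of all 13576. With 1 probe set per gene as well, 5 of 10 members passed, against 2347 of 8003. Each mouse has 2 arrays of the same T cells, and these p-values measure the spread between its co-cultures. With the variance prior not tied to expression level, 4 of the 24 passed, namely 1 probe set of Ccnd1 (1417420_at) and 3 of Ccnd2 (1416123_at, 1448229_s_at and 1455956_x_at), and without mouse C the count was 7.

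**Figure D1:**
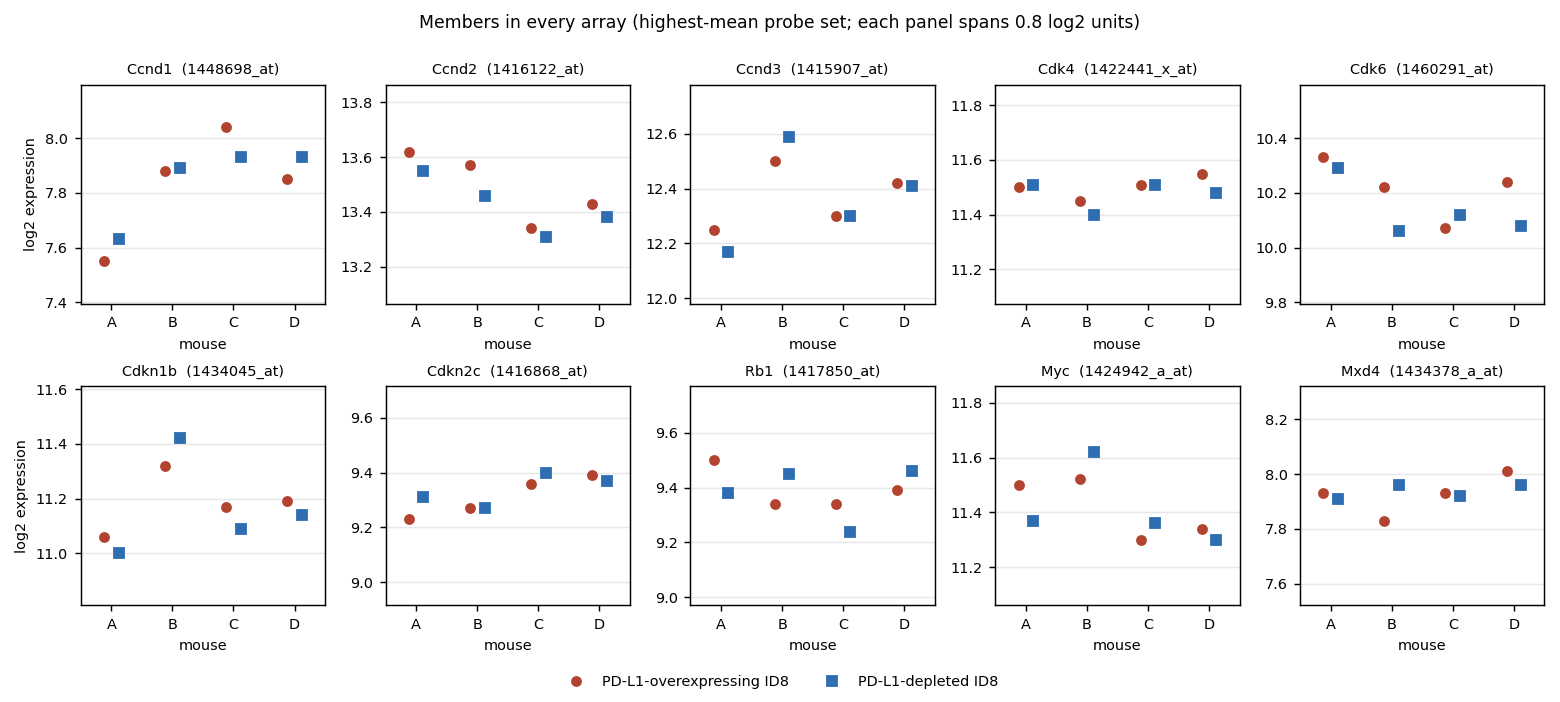
Deposited log2 expression (vertical axis, each panel spanning the same range) of the highest-mean probe set of each gene on every array, by mouse (horizontal axis). Circles mark targets overexpressing PD-L1 and squares depleted ones; Ccnd1 is lowest in mouse A, Ccnd2 lowest in mouse C, and Ccnd3, Cdkn1b and Myc highest in mouse B.

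Ccnd2, the main D-type cyclin induced in stimulated lymphocytes, was lowest in mouse C in all 7 probe sets. In the probe set with the highest mean (1416122_at), it read 13.62, 13.57, 13.34 and 13.43 in mice A, B, C and D with PD-L1-overexpressing targets. With PD-L1-depleted targets the readings were 13.55, 13.46, 13.31 and 13.38. Both arrays of mouse C were below the 6 others, and mice A and B were highest. Mouse C differed from the mean of the others by -0.18 (SE 0.024, limma adjusted p = 0.00455), which is 1.13-fold, and mouse A by 0.17 (SE 0.024, limma adjusted p = 0.00161). Without mouse A the call in mouse C was lost (limma adjusted p = 0.0591).

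The other Ccnd2 probe sets gave the same picture at other levels. In 1416123_at the 8 arrays ran from 9.37 to 10.06, and mouse C was lower by 1.34-fold (-0.42, SE 0.048, limma adjusted p = 0.00188). In every one of the 7, both arrays of mouse C lay below all arrays of the other mice, and the difference of mouse C ran from -0.42 to -0.18. The share of all probe sets with such a gap in mouse C was not counted. All 7 passed in mouse C, 6 in mouse A (higher), 4 in mouse B (higher) and 0 in mouse D. The F test gave adjusted p from 0.00025 to 0.0162. The highest mouse was A in 3 and B in 4 of them, so A and B are not ordered. By the array's naming, 1448229_s_at and 1455956_x_at may hold probes that match other transcripts, and both showed the pattern of the rest. Without mouse C, 3 of the 7 no longer passed the F test (1416124_at at limma adjusted p = 0.347, 1430127_a_at at 0.0654 and 1434745_at at 0.051).

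**Figure D2:**
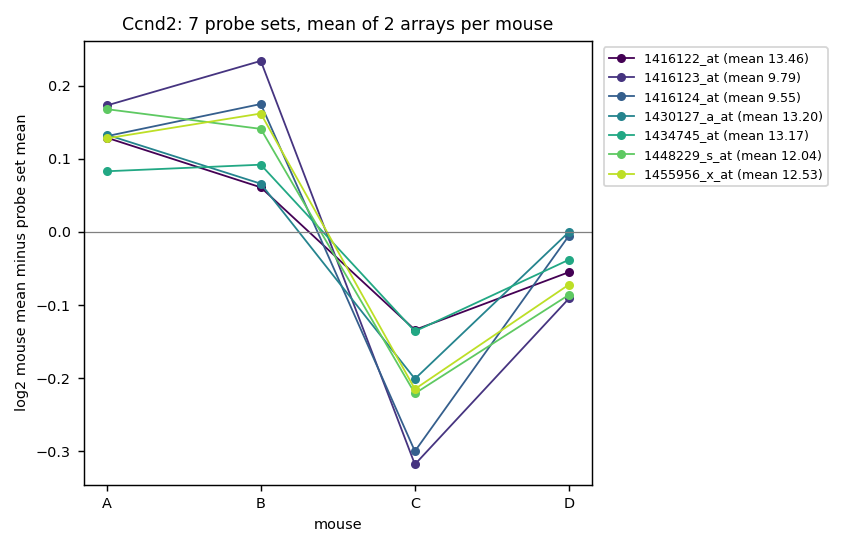
Mean of each mouse's 2 arrays minus the mean of all 8 arrays (log2, vertical axis) for the 7 Ccnd2 probe sets, by mouse (horizontal axis); lines join the values of a probe set and imply no order of the mice. All 7 are lowest in mouse C and above 0 in mice A and B.

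Ccnd1 encodes the D-type cyclin typical of epithelial and fibroblast cells. It was lowest in mouse A. In 1448698_at, the highest of its 3 probe sets, mouse A read 7.55 with overexpressing and 7.63 with depleted targets, and the other mice ran from 7.85 to 8.04. The arrays of mouse A did not overlap those of the others in any of the 3 probe sets. How many of all probe sets do so in mouse A was not counted. Mouse A differed by -0.33 (SE 0.066, limma adjusted p = 0.00976), and by -0.51 in 1417420_at and -0.41 in 1417419_at (adjusted p = 0.00159 and 0.0236). In mouse A these 2 probe sets read 6.78 and 6.98, and 6.88 and 6.78, close to the 40th percentile of 6.87, where signal may be near background. The F test passed in the first and second (adjusted p = 0.0381 and 0.00835), and 1417419_at stood at 0.0834. Without mouse A the adjusted p of the F test was 0.685 to 0.790. The call of 1448698_at was also lost without mouse C (limma adjusted p = 0.0716) or D (0.0606) and without the variance trend (0.0716), and the mouse A call of 1417419_at without mouse C (0.0707). Of the 21 ID8 markers 2 were lower and 0 higher in mouse A (median -0.258), against 6.36% and 8.32% of all probe sets. The 2 were Krt8 and Cdh1, of which Cdh1 lay below the 40th percentile. The part of the ID8 markers in the Ccnd1 difference was not tested.

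Ccnd3, the D-type cyclin of developing and mature lymphocytes, was highest in mouse B and lowest in mouse A. It read 12.25, 12.50, 12.30 and 12.42 in mice A to D with PD-L1-overexpressing and 12.17, 12.59, 12.30 and 12.41 with PD-L1-depleted targets. Both arrays of B were above and both of A below all others. Mouse B was higher by 0.24 (SE 0.035, limma adjusted p = 0.00712) and mouse A lower (-0.21, SE 0.035, adjusted p = 0.00392), a span of 1.26-fold between them (F test adjusted p = 0.00402, and 0.0864 without the variance trend). The 3 D-type cyclins thus had 3 orders of mice: mouse A was among the highest for Ccnd2 and the lowest for Ccnd1 and Ccnd3, and mouse C was lowest for Ccnd2 alone among them.

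Cdkn1b, the gene of p27, followed the order of Ccnd3 at its extremes. Its higher probe set, 1434045_at, read 11.06, 11.32, 11.17 and 11.19 in mice A to D with PD-L1-overexpressing and 11.00, 11.42, 11.09 and 11.14 with PD-L1-depleted targets. Both arrays of B were the highest and both of A the lowest. Mouse B was higher by 0.26 (SE 0.040, limma adjusted p = 0.00879) and mouse A lower (-0.19, SE 0.040, adjusted p = 0.0114). The F test passed (adjusted p = 0.00866), but not without mouse A (0.0919) or without the variance trend (0.0913). Over the 8 arrays Cdkn1b and Ccnd3 correlated at 0.96, which describes 4 mice with 2 arrays each. The other probe set, 1419497_at, lay under the 40th percentile at 6.35 to 6.58 and did not show this (F test adjusted p = 0.585). Cdkn2c, the p18 gene, ran from 9.23 to 9.40 and did not pass (F test adjusted p = 0.288).

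Myc was highest in mouse B. It read 11.50, 11.52, 11.30 and 11.34 in mice A to D with PD-L1-overexpressing and 11.37, 11.62, 11.36 and 11.30 with PD-L1-depleted targets. Both arrays of B were above the rest, though the array of mouse A with overexpressing targets, at 11.50, was close to them. Mouse B was higher by 0.21 (SE 0.044, limma adjusted p = 0.0354), or 1.16-fold, and the F test passed narrowly (adjusted p = 0.0347). That call was lost under quantile normalization (limma adjusted p = 0.0579), without the variance trend (0.164) and without mouse B (0.0991), C (0.0661) or D (0.0956). Mxd4 did not pass: its 3 probe sets above the 40th percentile ran from 7.44 to 8.01, the fourth from 5.79 to 6.11, and the F test gave adjusted p from 0.436 to 0.783.

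Neither the kinases nor their substrate passed the F test. Cdk4 ran from 10.87 to 10.98, from 10.17 to 10.42 and from 11.40 to 11.55 in its 3 probe sets, with spans between mice of 1.06-fold, 1.12-fold and 1.06-fold (F test adjusted p = 0.368, 0.279 and 0.299). The lowest mouse was A in 1422439_a_at and B in the other pair of Cdk4 probe sets, so they gave no common order. Cdk6 read 10.33 and 10.29 in mouse A and 10.06 to 10.24 in the others. Mouse A was higher by 0.18 (SE 0.050, limma adjusted p = 0.0405), though the F test over all mice did not pass (adjusted p = 0.127), and the call in mouse A was lost under quantile normalization (limma adjusted p = 0.0723), without the variance trend (0.12) and without mouse C (0.0672) or D (0.0779). Rb1 ran from 9.24 to 9.50 with a span of 1.11-fold between mice (F test adjusted p = 0.368).

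Counted by mouse, 7 member probe sets were higher and 5 lower in mouse A than in the mean of the other 3, against 8.32% and 6.36% of all probe sets. In mouse B 7 were higher and 0 lower (2.64% and 0.972% of all), in mouse C 0 higher and 7 lower (1.11% and 2.02%), and in mouse D 0 and 0 (1.83% and 1.49%). The 7 of mouse C were all Ccnd2. Ccnd2 also gave 6 of the 7 higher in mouse A and 4 of the 7 higher in mouse B. Ccnd1 gave 3 of the 5 lower in mouse A. The counts are therefore not of independent genes. The span between the highest and lowest mouse had a median of 0.240 over the 24 probe sets and of 0.187 over all probe sets. Beside the values of mouse A stand those of the CD8 T cell markers, 6 of 8 of which were lower there (median -0.140), and their part in the members' differences was not tested.

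**Figure D3:**
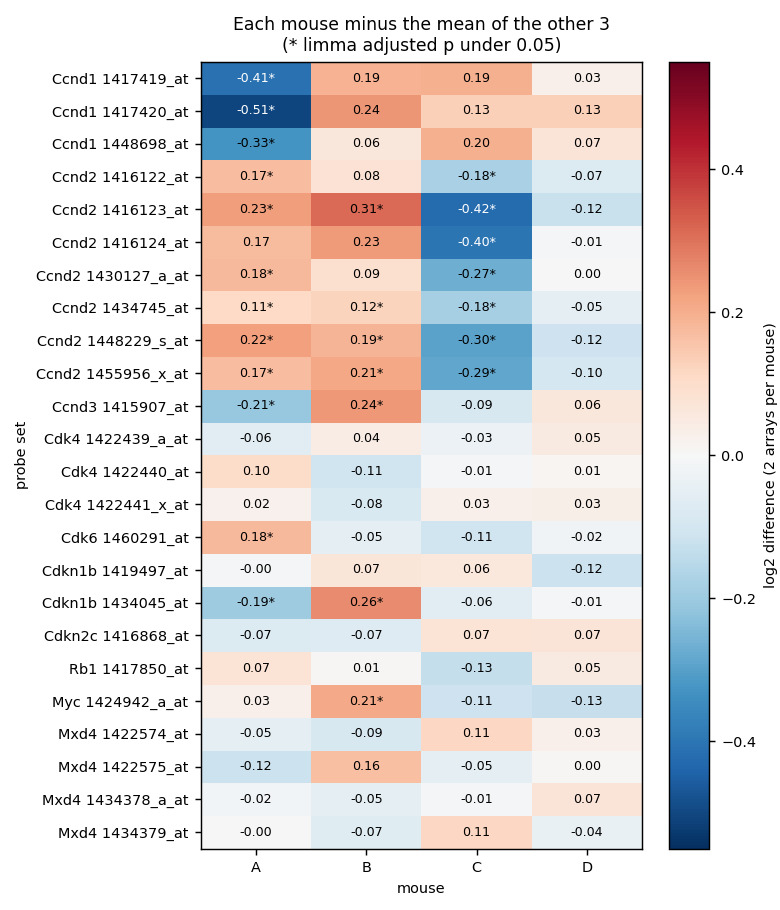
Log2 difference of each mouse (columns, 2 arrays per mouse) from the mean of the other 3, for all 24 member probe sets (rows); a star marks limma adjusted p under 0.05 over all probe sets. The Ccnd1 rows are negative in mouse A, the Ccnd2 rows negative in mouse C, and mouse D has no star.

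Genes that work beside the members were read from 5 lists, each gene by its highest-mean probe set. The other Cdk inhibitors held the widest differences. Cdkn2a, which encodes p16 and ARF, read 6.75 and 6.79 in mouse A, 7.65 and 7.53 in B, 8.11 and 8.17 in C, and 8.12 and 8.14 in D. Mouse A was below the mean of the others by 2.27-fold (-1.18, SE 0.066, limma adjusted p = 6.56e-06), and its values in mouse A lie below the 40th percentile. Its neighbour Cdkn2b, the p15 gene, read 6.95 and 7.24 in mouse A and 7.92 to 8.23 in the others (2.01-fold lower, limma adjusted p = 5.63e-05). Cdkn1a, the p21 gene, named after its values were seen, went the other way, with 13.17 and 13.16 in mouse A and 12.79 to 13.00 in the others (0.28, SE 0.026, limma adjusted p = 0.000172). Of the 5 inhibitors on the array, 1 was higher and 2 lower in mouse A, against 8.32% and 6.36% of all probe sets. By the F test 3 of the 5 passed, against 12.9% of all probe sets. With 1 probe set per gene above the 40th percentile, 2347 of all 8003 passed it.

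Genes commonly induced by Myc were in the majority higher in mouse A, while the Myc transcript was highest in mouse B. Of 28 on the array, in mouse A 16 were higher and 0 lower, the median being 0.111 against 0.00717 over all probe sets. In mouse B 0 were higher or lower (median -0.0063 against -0.0269). All 28 lay above the 40th percentile, and the share higher in mouse A among such probe sets was not counted. By the F test 12 of the 28 passed, against 2347 of 8003 with 1 probe set per gene above that percentile. Fkbp4, a co-chaperone, was higher in mouse A by 0.38 (SE 0.034) and Rrp9, a factor of ribosomal RNA processing, by 0.37 (SE 0.044), with limma adjusted p = 0.000117 and 0.000613. Of 20 S phase genes driven by E2F, 5 were higher and 2 lower in mouse A, and 0 higher and 3 lower in mouse B (median -0.101). Of all probe sets, 8.32% were higher and 6.36% lower in mouse A, and 2.64% and 0.972% in mouse B. The 2 lower in mouse A were Tk1, thymidine kinase (-0.48, SE 0.047), and the licensing factor gene Cdt1 (-0.41, SE 0.052), with limma adjusted p = 0.000223 and 0.000994. Mki67, the proliferation marker, was lower in mouse B (-0.18, SE 0.036, limma adjusted p = 0.0283). In mouse C, where Ccnd2 was lowest, the S phase list had 1 gene higher and 0 lower, against 1.11% and 2.02% of all probe sets. Its median there was 0.0158, against 0.00826 over all probe sets.

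Of 16 genes of the cyclin E, Cdk2, E2F and pocket protein list, 2 were higher in mouse A and 1 lower in mouse B, against 8.32% and 0.972% of all probe sets. Ccne1 and Ccne2, the E-type cyclins that act after cyclin D, did not pass the F test (adjusted p = 0.101 and 0.117). Of 11 other genes of the Myc, Max and Mxd network, 2 passed it, against 12.9% of all probe sets. Mga, a Max partner, was among them (adjusted p = 0.0405), with 8.34 and 8.36 in mouse A and 8.10 and 7.87 in C. Mxd1, a relative of Mxd4, did not pass the F test (adjusted p = 0.0708). In mouse A it was lower (-0.20, limma adjusted p = 0.0463), at 8.17 and 8.22 against 8.29 to 8.55. It was the only gene of this list called in mouse A, where 8.32% of all probe sets were higher and 6.36% lower.

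**Figure D4:**
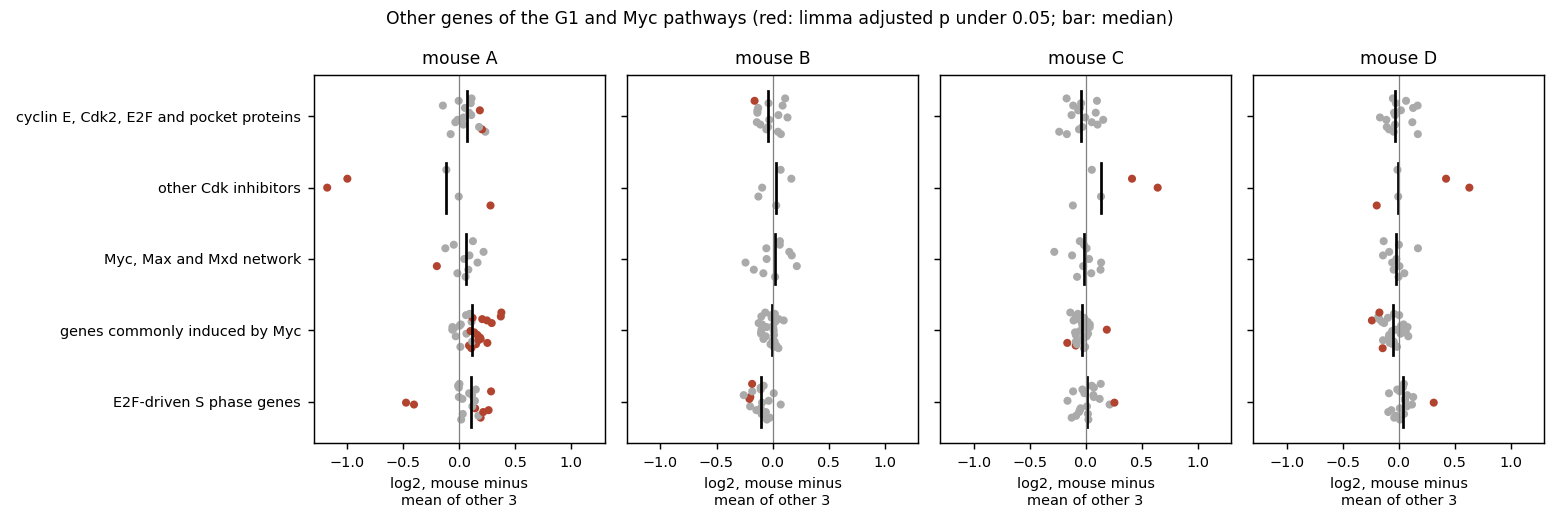
Log2 difference of each mouse from the mean of the other 3 (horizontal axis, 1 panel per mouse) for the genes of 5 pathway lists (rows); each point is a gene, red at limma adjusted p under 0.05, and bars are list medians. Cdkn2a and Cdkn2b stand at the far left in mouse A, and the Myc-induced genes lie mostly to the right of 0 there.

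The second question, the one the study was built on, was whether PD-L1 on the targets changed these genes within 4 h. No member was called between targets. With mice as blocks in limma, 0 of 24 member probe sets passed (adjusted p from 0.993 to 0.999), as did 0 of all 22626 probe sets in either direction (0% and 0%). At an unadjusted p under 0.05 there were 4 members, 3 of Ccnd2 and 1 of Ccnd1, against 3.77% of all. Ccnd2 was taken with its small p in this comparison known, and its probe sets read the same transcripts. The count is therefore a description and not evidence of a difference. The differences, PD-L1-overexpressing minus PD-L1-depleted, ran from -0.158 to 0.127, with a median of 0.0165 against -0.00563 over all probe sets. The bounds of the 24 intervals (95%) ran from -0.296 to 0.222. The target groups overlapped in every member probe set, but this leaves out the pairing by mouse. Ccnd2 1416122_at overlapped although it was higher with overexpressing targets in all 4 mice. The share of all probe sets that overlap was not counted.

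Ccnd2 was the gene singled out earlier for its difference between targets, and its 7 probe sets did not give 1 answer. The highest, 1416122_at, averaged 13.49 ± 0.13 with targets overexpressing PD-L1 and 13.43 ± 0.11 with depleted ones (SD, n = 4 each), a difference of 0.065 with a 95% interval from 0.018 to 0.112. It was higher with overexpressing targets in mice A (0.066), B (0.110), C (0.028) and D (0.056). 1416123_at differed by 0.127 and 1448229_s_at by 0.060, also higher in all 4 mice. By contrast, 1430127_a_at and 1434745_at differed by 0.017 and -0.0088, with intervals from -0.030 to 0.063 and from -0.056 to 0.039. Of the 24 member probe sets 4 were higher in all 4 mice, all of Ccnd2, and 1 was lower in all 4, against 4.72% and 7.19% of all. That count, too, rests on the values for which Ccnd2 was singled out. The mean of the ID8 markers differed by 0.946, -1.25, 0.808 and 0.846 in mice A to D, and its part in these differences was not tested. In 1416122_at the highest and lowest of the 4 mouse means, of 2 arrays each, lay 0.262 apart. The 2 target means, of 4 arrays each, lay 0.065 apart. These measures are unlike, since the span of more means of fewer arrays tends to be wider without any effect.

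The probe set lower in all 4 mice was 1417420_at of Ccnd1, with differences of -0.203, -0.252, -0.048 and -0.128 in mice A to D and a mean of -0.158 (95% interval -0.296 to -0.019). The other Ccnd1 probe sets differed by -0.037 and -0.015 and went both ways among the mice. Myc averaged 11.41 ± 0.11 and 11.41 ± 0.14 (SD, n = 4 each), and its difference of 0.0010 had an interval from -0.085 to 0.087. Mxd4 differed by -0.021 to 0.022 over its 4 probe sets. Cdk4 differed by 0.0083, 0.042 and 0.028, and Cdk6 by 0.078 (interval -0.019 to 0.175), higher in mice A, B and D and lower in C. Ccnd3 (-0.0022), Cdkn1b (0.022 in 1434045_at), Cdkn2c (-0.022) and Rb1 (0.011) differed by less than their standard errors.

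**Figure D5:**
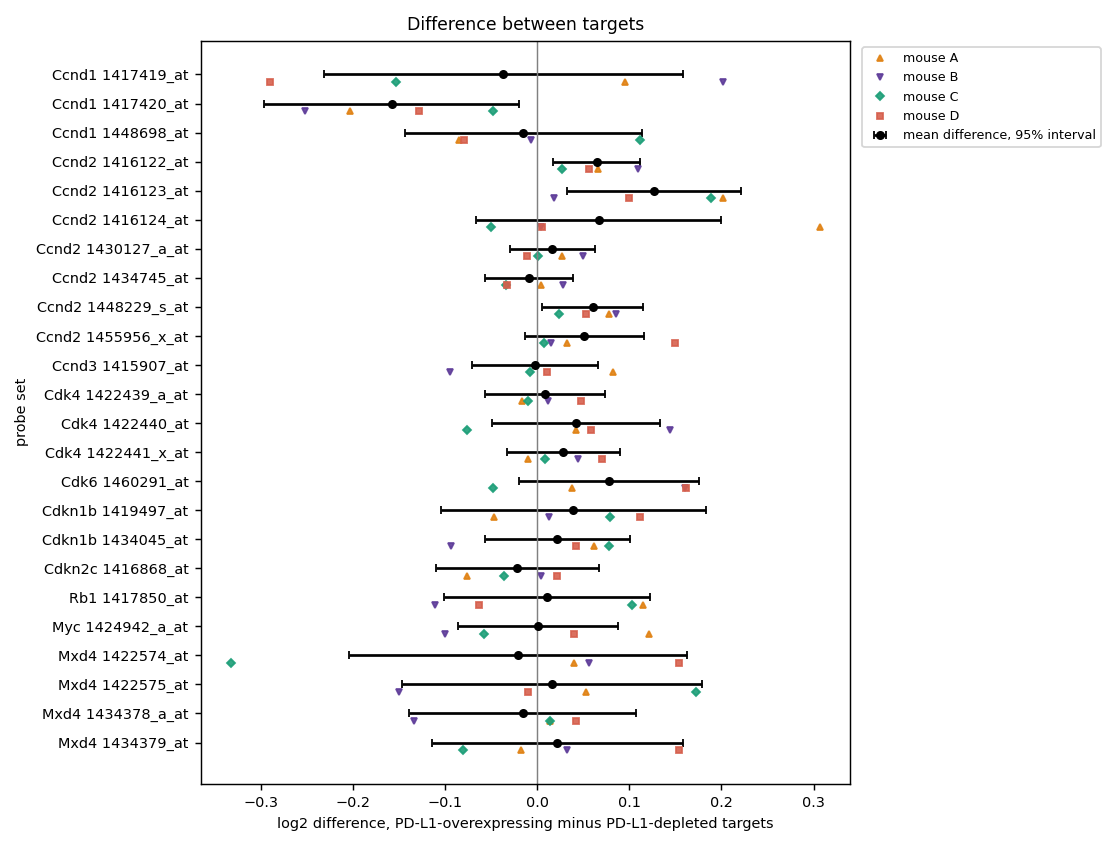
Log2 difference, PD-L1-overexpressing minus PD-L1-depleted (horizontal axis), for the 24 member probe sets (rows): black points and bars are the mean of 4 mice with its 95% interval from limma, coloured marks the single mice. Every interval lies within 0.3 of 0 on the log2 scale.

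Without mouse B, in which the ID8 markers differed the other way, 1.59% of all probe sets passed between targets (360) and 0 of the 24 members did. At an unadjusted p under 0.05 there were then 2 members. The share of all probe sets at that threshold was not counted in this fit, so the number has no background beside it. Neighbouring pathway genes gave 0 calls between targets in the fit of all 4 mice. The median differences of the 5 lists ran from -0.0233 (other Cdk inhibitors) to 0.0182 (Myc, Max and Mxd network). Genes commonly induced by Myc had 19 of 28 higher with a median of 0.0108, and the S phase list 12 of 20 with 0.0031. Over all probe sets the median was -0.00563, and the share higher was not counted. In mice A to D the Myc-induced genes above the 40th percentile differed on average by 0.000279, 0.0486, -0.00583 and 0.00644. The S phase genes above it differed by -0.00898, 0.101, -0.0675 and -0.00669. In both lists the largest positive difference was in mouse B. The genes with the widest difference in each list, among those above the 40th percentile, went in both directions and none passed (limma adjusted p = 0.993 each). Mlx, a Max-like factor, differed by 0.10 (SE 0.044), Nop58 and Nop16, of the nucleolus, by 0.078 (SE 0.029) and 0.069 (SE 0.038), Mki67 by 0.076 (SE 0.031) and Skp2, a ubiquitin ligase subunit, by 0.059 (SE 0.072). Mycn, a Myc relative, differed by -0.0945 (SE 0.062), Cdkn2b by -0.0918 (SE 0.069), E2f8, a repressor of the E2F family, by -0.0865 (SE 0.052), Tk1 by -0.047 (SE 0.041) and Cdkn2d, the p19 gene, by -0.0233 (SE 0.029).

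For each member's highest-mean probe set, the probe sets most like it over the 8 arrays, of 12435 searched, are given as a description, since 8 points from 4 mice allow many close matches. For Ccnd2 (1416122_at) they were those of Cdv3 (r = 0.981) and Rab11a (0.979). For Ccnd3 they were Secisbp2l (0.992) and Twf2 (0.990), for Cdkn1b Lgalsl (0.987) and Tpi1 (0.985), and for Myc Grsf1 (0.973) and Zfp53 (0.968). For Ccnd1 they were Epsti1 (0.978) and Clta (0.972). Members that did not pass the F test between mice had close matches too. They were Vps53 (0.994) and Snai3 (0.974) for Cdkn2c, and Zfp292 (0.991) and Xiap (0.970) for Rb1. For Cdk6 they were Bptf (0.984) and Orc4 (0.981), for Cdk4 Slc39a9 and Pik3ca (0.939 each), and for Mxd4 Elp3 (0.941) and Rassf8 (0.894). Between members, Ccnd2 and Ccnd1 correlated at -0.81, Ccnd2 and Cdk6 at 0.78, and Ccnd3 and Ccnd2 at -0.08. The most negative pairs were Ccnd2 with Cdkn2c and Cdk6 with Ccnd1, at -0.87 each.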

How the data were processed

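Each of 8 T cell RNA samples was biotin-labelled and measured on 1 array. The deposited values are 1 log2 expression value per probe set, a scale read from the values; the authors' summarisation and normalisation are not given in the sources used here. Sorted values of the arrays differed by at most 0.167 at the same rank, and a shift common to most genes cannot be seen in such values. The 64 control probe sets were left out. Platform annotation gave 1 symbol for 20380 probe sets, several for 691 and none for 1555.

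The models were fitted in R 4.3.3 using limma 3.58.1 (eBayes with a trend, two-sided, Benjamini-Hochberg over 22626 probe sets, threshold 0.05), without a filter on low values, so that each member probe set has a value. The target comparison held the mouse as a block, since the series design and the titles give the same animal for each pair. Deviations of a mouse's 2 arrays from their group means correlated at 0.688 (A), 0.091 (B), 0.478 (C) and 0.440 (D). Each array of mouse B correlated better with an array of mouse D, at 0.101 for that with overexpressing targets. The pairing of mouse B therefore rests on the design and titles alone. Mice were compared by a moderated F test, and each against the mean of the other 3, with the target as covariate. Only 4 arrays per group limit the precision. Members, lists and tests were chosen with earlier results of these data known. Named pathway genes were the 2 with the widest span between mice and the 2 with the largest difference between targets in each list, above the 40th percentile; exceptions are said to be so. The steps were tested on data with known changes. Alternatives were no block, a random block, quantile normalisation, median centring, a 40th percentile filter, that filter with 1 probe set per gene, other variance priors, no target term and leaving out each mouse. 0 columns of other samples were present.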

Additional observations from a re-analysis of the deposited data

Results flagged for a closer look

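For each member probe set and target, the most distant of the 4 arrays was compared with the next one, as a share of the spread of all 4. Of 48 groups examined, 3 had an array far from the others, where chance gives about 2.4, or 1 group in 20. Mouse A was lowest for Ccnd1 in 1417420_at with PD-L1-overexpressing targets (0.931 of the range) and in 1448698_at with PD-L1-depleted targets (0.856). Mouse C was highest for Mxd4 in 1422574_at with PD-L1-depleted targets (0.894), where it read 7.87 against 7.53 to 7.56.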

How the results depend on the processing

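No member was called between targets under any alternative run, and with no replicate block the count over all probe sets was 0, as with the mouse as a random block. Over all probe sets the count ran from 0 to 360 with each mouse left out, 360 being without mouse B. The members' differences moved by less than the spread between mice in all 272 values recomputed, but most could not have done otherwise. Changes of block, filter or variance prior leave the difference as it is. Leaving out a mouse cannot move the mean by that spread. Only quantile normalization and median centring could have failed this measure. Of the 272 values 19 changed sign, none of them called. Between mice, 2917 probe sets passed, 985 without a variance trend and 500 to 5396 with a mouse left out (500 without A, 1720 without D, 5396 without B). Of the member probe sets, 12 passed, 4 without a trend and 7 (without C) to 13 (without B) with a mouse left out. With 1 probe set per gene and the 40th percentile filter together, 5 of 10 passed, against 2347 of 8003 in all. The members' calls in single mice numbered 26, with 5 without a trend, 9 with 1 probe set per gene and that filter, and 14 to 25 with a mouse left out (14 without C, 17 without A). None of the 243 recomputed values changed sign, and 41 lost the call. A left-out mouse also changes the mean it is set against.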
